A study of Caenorhabditis elegans with 12 samples.

Results

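The comparison described here set worms given naringin (Nar) on high glucose against worms on high glucose alone. It rests on 6 of the 12 miRNA libraries of the study, 3 of Nar + Glu and 3 of Glu, chosen by their treatment labels, and on all 263 distinct mature miRNA names of the count table, of which 219 had enough counts to be tested. All animals were wild-type N2 worms, moved as L4 larvae to agar carrying E. coli OP50 at 20 °C and collected as whole adults after 5 d, with progeny taken off by sedimentation. Glu worms received 2% glucose and nothing else. Nar + Glu worms received 2% glucose with 25 µM naringin, the main flavonoid glycoside of grapefruit, dissolved in DMSO at 0.1%. Because the Glu worms had no DMSO, the difference between these groups joins that of naringin with that of its solvent, and the 3 libraries of a DMSO + Glu group, which had the glucose and the solvent, are given beside each of the 20 miRNAs past the adjusted threshold without a test. The labels do not say whether the 3 libraries of a group came from separate cultures, so the p-values measure only the spread between these libraries.

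A miRNA is cut from a hairpin precursor as a short duplex, one arm of which (5p or 3p) is usually loaded into an Argonaute protein and guides it to mRNAs through a short seed, while the other arm is mostly degraded. In C. elegans several miRNAs carry well known roles. lin-4 and let-7 time larval development, miR-1 acts in muscle, the miR-35 family is needed in oocytes and embryos, and lin-4, miR-71, miR-34 and miR-238 belong to the miRNAs known to alter adult lifespan.

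The 6 libraries held between 2640879 and 4029351 miRNA counts each, and the 3 DMSO + Glu libraries between 3267311 and 3849726. A single miRNA, miR-1-3p, made up 40.0% to 43.5% of all counts in Glu and 28.9% to 34.6% in Nar + Glu, so the way libraries were scaled to each other bore on every other miRNA. TMM scaling, which assumes that most miRNAs do not move, gave factors of 0.718, 0.971 and 0.934 in Glu and 1.12, 1.16 and 1.19 in Nar + Glu. Nar + Glu replicates 1 and 2 were closer to each other than any other pair of the same group, with 20.4 as the chi-square over its degrees of freedom, against 65.3 to 696 for the other 8 pairs of Glu, DMSO + Glu and Nar + Glu. They differed by more than counting noise, which libraries from 1 culture can also do. They were counted as separate libraries because the labels list them as such, and the effect of summing them is given beside the count of calls. Levels are given below as CPM, the counts of a miRNA scaled to a common TMM-adjusted library size, and fold changes come from the fit of the 6 libraries.

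In Nar + Glu worms, 14 miRNAs were upregulated and 6 were downregulated relative to Glu worms at an adjusted p under 0.05 by the edgeR quasi-likelihood test, Benjamini-Hochberg adjusted. The downregulated miRNAs were let-7-5p, its relative miR-241-5p, the muscle miRNA miR-1-3p, miR-235-3p, miR-59-3p and miR-1817. The upregulated ones were led by miR-1820-5p, miR-52-3p, miR-251, miR-49-5p and both arms of miR-4813. These 20 are 9.13% of the miRNAs tested, with 6.39% higher and 2.74% lower, and their log2 fold changes ran from -1.35 to 1.25. The thresholds named in the study's methods, a fold change above 1.5 in either direction with an unadjusted p under 0.05, were passed by 36 miRNAs (16.4%), of which 26 were higher (11.9%) and 10 lower (4.57%), and 17 miRNAs met both rules. In 81 miRNAs (37.0%) no library of one group reached the range of the other, with 43 higher (19.6%) and 38 lower (17.4%) in Nar + Glu. All 20 miRNAs past the adjusted threshold were among these 81. Over all 219 miRNAs the median log2 fold change was 0.09, with 123 positive and 96 negative values.

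The count of 20 rested on single libraries. It dropped to 1 when Nar + Glu replicate 1 was left out. When Nar + Glu replicate 2 was left out it dropped to 0, with 47 miRNAs at an unadjusted p under 0.05 and a smallest adjusted p of 0.0543 (edgeR quasi-likelihood test, Benjamini-Hochberg). Leaving out Glu replicate 2 gave 11. Without Glu replicate 1, Glu replicate 3 or Nar + Glu replicate 3 the counts were 19, 29 and 23. With Nar + Glu replicates 1 and 2 summed to 1 library the count was also 0, with 53 miRNAs at an unadjusted p under 0.05 and a smallest adjusted p of 0.0564 in edgeR, the one tool run on the summed counts. The count by fold and unadjusted p stayed between 32 and 41 when any 1 library was left out. The balance of higher and lower calls followed the scaling. Scaling by total counts alone gave 80 higher and 3 lower calls and a median log2 fold change of 0.50, and DESeq2's size factors in the same test gave 11 higher and 11 lower with a median of 0.01. The 20 miRNAs named here had the same sign in each of the 19 alternative settings that tested them.

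**Figure D1:**
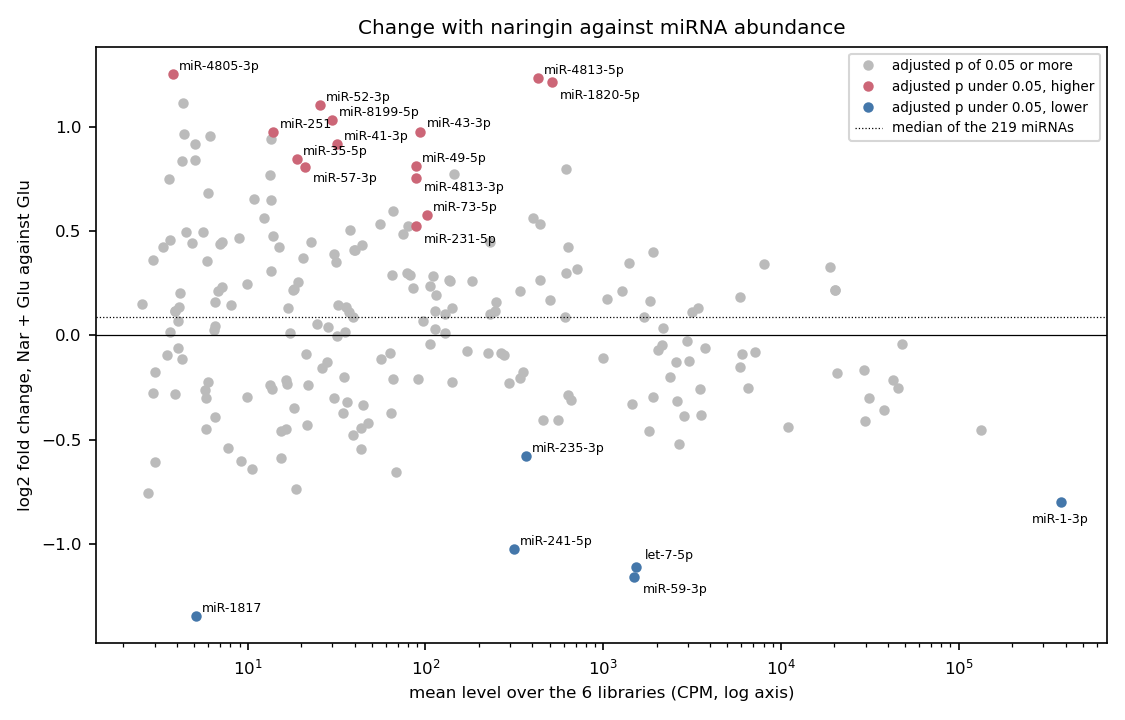
Log2 fold change of Nar + Glu against Glu (vertical axis) against the mean level over the 6 libraries in CPM (horizontal log axis) for the 219 miRNAs tested, with the 20 past an adjusted p of 0.05 coloured and named. Of the 6 lower miRNAs, 5 lie among the 73 most abundant, and 10 of the 14 higher ones lie among the 73 of middle abundance.

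Under TMM scaling the most abundant miRNAs leaned lower and the others higher, a pattern that was not tested. When the 219 miRNAs were ordered by mean level and divided into 3 sets of 73, the most abundant set, from 232 to 377453 CPM, held 5 of the 6 downregulated miRNAs and 2 of the 14 upregulated ones. Its median log2 fold change was -0.09, with 44 of 73 values negative. The middle set, from 18.9 to 231 CPM, held 10 upregulated and no downregulated miRNAs and had a median of 0.14. The scarcest set, from 2.56 to 18.7 CPM, held 2 upregulated miRNAs and 1 downregulated one and had a median of 0.15. With total counts alone all 3 medians were positive, at 0.29, 0.53 and 0.55 from the most abundant to the scarcest set.

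let-7-5p, which ends the larval programme by repressing lin-41 and others, was the most significant downregulated miRNA. Its level was 2203, 1729 and 2426 CPM in the Glu libraries, 1613, 1549.8 and 1431 in DMSO + Glu and 939, 796 and 1115 in Nar + Glu, with means of 2119 ± 356, 1531 ± 92.5 and 950.0 ± 160.1 CPM (SD, n = 3). Every Nar + Glu library lay below every DMSO + Glu library, and these in turn lay below every Glu library. The level was 2.16-fold lower in Nar + Glu than in Glu, a log2 fold change of -1.11 ± 0.18 (SE) with 0.00986 as the adjusted p of the edgeR quasi-likelihood test. In one fit of the 9 glucose libraries, the difference of DMSO + Glu from Glu was -0.47 ± 0.16 and that of Nar + Glu from DMSO + Glu -0.69 ± 0.16 on the log2 scale (SE). The let-7 gene lies on the minus strand of chromosome X, from 14743590 to 14745321 in WBcel235, where the annotation gives the primary transcript and not the hairpin alone.

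The other members of the let-7 family had lower fitted levels too. miR-48, miR-84 and miR-241 act earlier than let-7, at the passage from the second to the next larval stage, through hbl-1. miR-241-5p was at 345, 338 and 592 CPM in Glu and 206, 154 and 246 in Nar + Glu, with 305, 309.8 and 336 in DMSO + Glu. Its Nar + Glu libraries were all below those of the other groups, although Glu replicate 3 stood well above the other Glu libraries. The fall was 2.03-fold (log2 fold change -1.02 ± 0.25, SE; adjusted p 0.0268, the edgeR quasi-likelihood test, Benjamini-Hochberg adjusted). miR-48-5p, the most abundant member, was at 10413, 11533 and 16429 CPM in Glu, 10939, 10665 and 11520.5 in DMSO + Glu and 10161, 8552 and 8685 in Nar + Glu. These ranges of Glu and Nar + Glu did not overlap, yet the log2 fold change of -0.44 ± 0.18 (SE) did not pass the test (adjusted p 0.124, edgeR). miR-84-5p had a log2 fold change of -0.39 ± 0.13 (SE) and an adjusted p of 0.0732 in the same edgeR test. The remaining relatives miR-793, miR-794-5p and miR-795-5p had log2 fold changes of -0.54, -0.45 and -0.46 and did not pass the test.

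Over the 7 family members tested, 2 were called lower (28.6%, beside 2.74% of all miRNAs) and none higher. In 6 of them (85.7%, beside 17.4% of all miRNAs) the groups did not overlap in the lower direction, and the median log2 fold change was -0.46 against 0.09 over all miRNAs. With total counts alone, 6 of the 7 remained negative and the family median was -0.06, against a median of 0.50 over all miRNAs in that scaling. All 7 lay below the median of all miRNAs under TMM, DESeq2 size factors and total counts alike. A change of scaling shifts all miRNAs by nearly the same amount, so this agreement had to follow and adds no support. miR-48 and miR-241 form a cluster of 1872 bases on the minus strand of chromosome V, between 14364412 and 14366283 in WBcel235, with no protein-coding gene there. Both arms of both precursors were measured, and their log2 fold changes were -0.44 and -0.48 for miR-48-5p and miR-48-3p and -1.02 and -0.73 for miR-241-5p and miR-241-3p. Of these 4 arms, miR-241-5p alone passed the adjusted threshold.

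lin-4-5p, which represses lin-14 and lin-28 and precedes let-7 in the timing pathway, was at 655, 696 and 579.6 CPM in Glu, 567, 685 and 619 in DMSO + Glu and 488, 479 and 439 in Nar + Glu. All 3 Nar + Glu libraries were below all 6 others. The log2 fold change of -0.41 ± 0.13 (SE) did not pass the adjusted threshold (adjusted p 0.071 in the edgeR quasi-likelihood test), and it was -0.0025 with total counts alone. Its paralog miR-237-5p was at 2874, 3194 and 3540.1 CPM in Glu, 3068, 3875 and 3822 in DMSO + Glu and 2456, 2308 and 1717 in Nar + Glu. Here too the Nar + Glu libraries were the 3 lowest of the 9, with a log2 fold change of -0.52 ± 0.16 (SE) that did not pass the test (adjusted p 0.0592, edgeR).

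miR-1-3p, the most abundant miRNA of these worms, is made in body wall and pharyngeal muscle and acts on synaptic transmission at the neuromuscular junction. It took 43.2%, 40.0% and 43.5% of all miRNA counts in the Glu libraries, 38.5%, 40.8% and 39.9% in DMSO + Glu and 34.5%, 34.6% and 28.9% in Nar + Glu. The DMSO + Glu and Glu libraries overlapped, while every Nar + Glu library was below both. The Glu mean was 42.3% ± 1.94 (SD, n = 3) and the Nar + Glu mean 32.7% ± 3.29 (SD, n = 3), with a difference of -9.61 percentage points. The two-sided exact permutation test gave p = 0.1, the smallest value that 3 libraries against 3 allow, and the adjusted value over the 4 such tests made was also 0.1. In the fit across all miRNAs, miR-1-3p was 1.74-fold lower (log2 fold change -0.80 ± 0.18, SE; adjusted p 0.0238, the edgeR quasi-likelihood test). Its log2 fold change with total counts alone was -0.37, with an adjusted p of 0.0139 in that edgeR fit. In whole worms a smaller part of the RNA coming from muscle and less miR-1-3p in each muscle cell cannot be told apart.

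**Figure D2:**
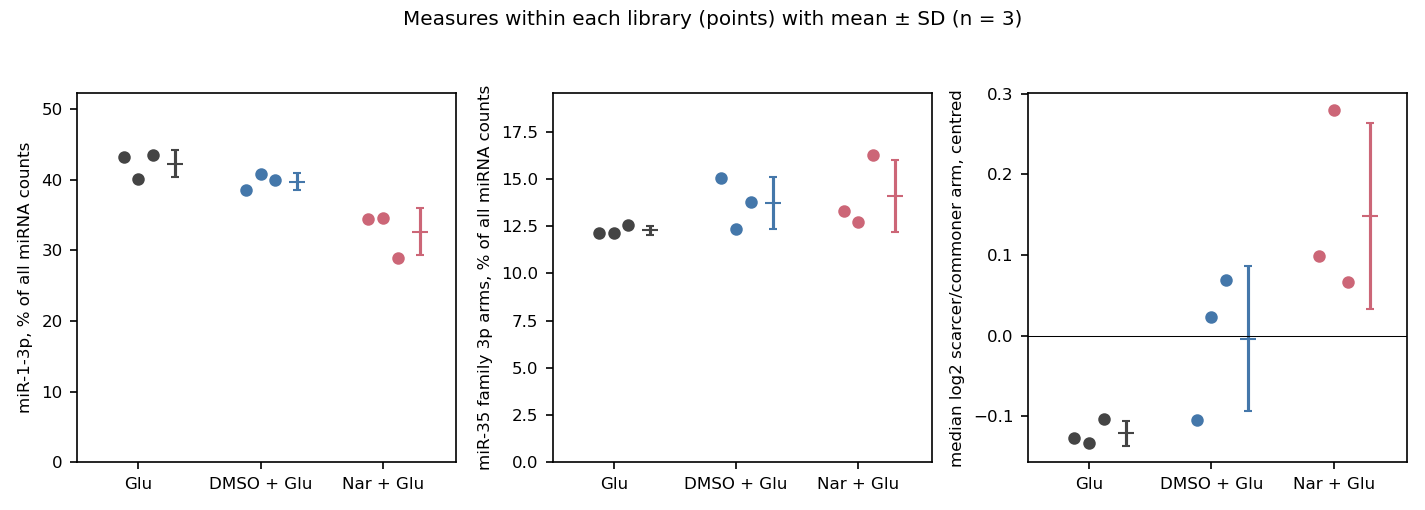
Share of miR-1-3p in all miRNA counts (left, %), share of the 8 3p arms of the miR-35 family (middle, %) and median centred log2 ratio of scarcer to commoner arm (right) in the libraries of Glu, DMSO + Glu and Nar + Glu, as points with mean ± SD (n = 3). The Nar + Glu libraries lie below all Glu libraries in the first measure and above all of them in the other measures.

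The other marker miRNAs of worm tissues gave no call apart from 1 member of the miR-35 family. In the intestine, miR-60-3p had a log2 fold change of 0.16 ± 0.13 and miR-243-3p one of -0.21 ± 0.19 (SE). Of the 5 neuronal miRNAs, miR-790-5p was the most abundant, at 744 ± 53.3 CPM in Glu and 579 ± 77.0 in Nar + Glu (SD, n = 3), and its log2 fold change of -0.31 did not pass the test. It alone of the 5 had groups that did not overlap, in the lower direction (20%, beside 17.4% of all miRNAs). miR-124-3p and lsy-6-3p, which mark sensory neurons, were scarce, at 7.73 and 11.1 CPM in Glu. The median over the 5 was 0.03, close to that of all miRNAs. The 8 miR-35 family 3p arms, a sign of oocytes and embryos, together took 12.1% to 12.6% of counts in Glu, 12.3% to 15.1% in DMSO + Glu and 12.7% to 16.3% in Nar + Glu. The exact permutation test of Nar + Glu against Glu gave p = 0.1, the smallest possible. This share is one of all counts, miR-1-3p included. Under TMM scaling the same 8 arms did not rise as a set, with 3 positive and 5 negative log2 fold changes and a median of -0.09. The part of miR-1-3p's own fall in the higher share, and of egg or embryo content in any other result, was not tested.

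miR-235-3p, the worm relative of miR-92, holds larvae in developmental arrest when food is lacking. It was at 392, 472 and 478 CPM in Glu, 384, 343 and 358 in DMSO + Glu and 309, 257 and 300.1 in Nar + Glu. The Glu and Nar + Glu libraries did not overlap, and the DMSO + Glu libraries were all below the lowest Glu library and all above the highest Nar + Glu library. The fall was 1.49-fold (log2 fold change -0.58 ± 0.14, SE; adjusted p 0.0268 in the edgeR quasi-likelihood test). With total counts alone it shrank to -0.19, with an adjusted p of 0.572 in edgeR.

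miR-59-3p, from chromosome IV, showed the second largest fall. It was at 2347, 2546 and 1365 CPM in Glu, 1379.7, 1145 and 1220.2 in DMSO + Glu and 836, 832 and 1038 in Nar + Glu. Glu replicate 3 was well below the other Glu libraries and inside the range of DMSO + Glu, and all Nar + Glu libraries were lower still. The level in Nar + Glu was 2.23-fold below that in Glu (log2 fold change -1.16 ± 0.22, SE; adjusted p 0.0176, the edgeR quasi-likelihood test). The step from Glu to DMSO + Glu was -0.74 ± 0.20 and the step from DMSO + Glu to Nar + Glu -0.47 ± 0.20 on the log2 scale (SE). miR-1817 had the largest fall of all, 2.54-fold, but at a very low level, with 7.63, 9.26 and 5.44 CPM in Glu, 5.38, 3.25 and 3.79 in DMSO + Glu and 2.26, 2.57 and 3.57 in Nar + Glu and between 8 and 27 counts in each Glu and Nar + Glu library. Its DMSO + Glu libraries were below all Glu libraries and overlapped those of Nar + Glu.

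**Figure D3:**
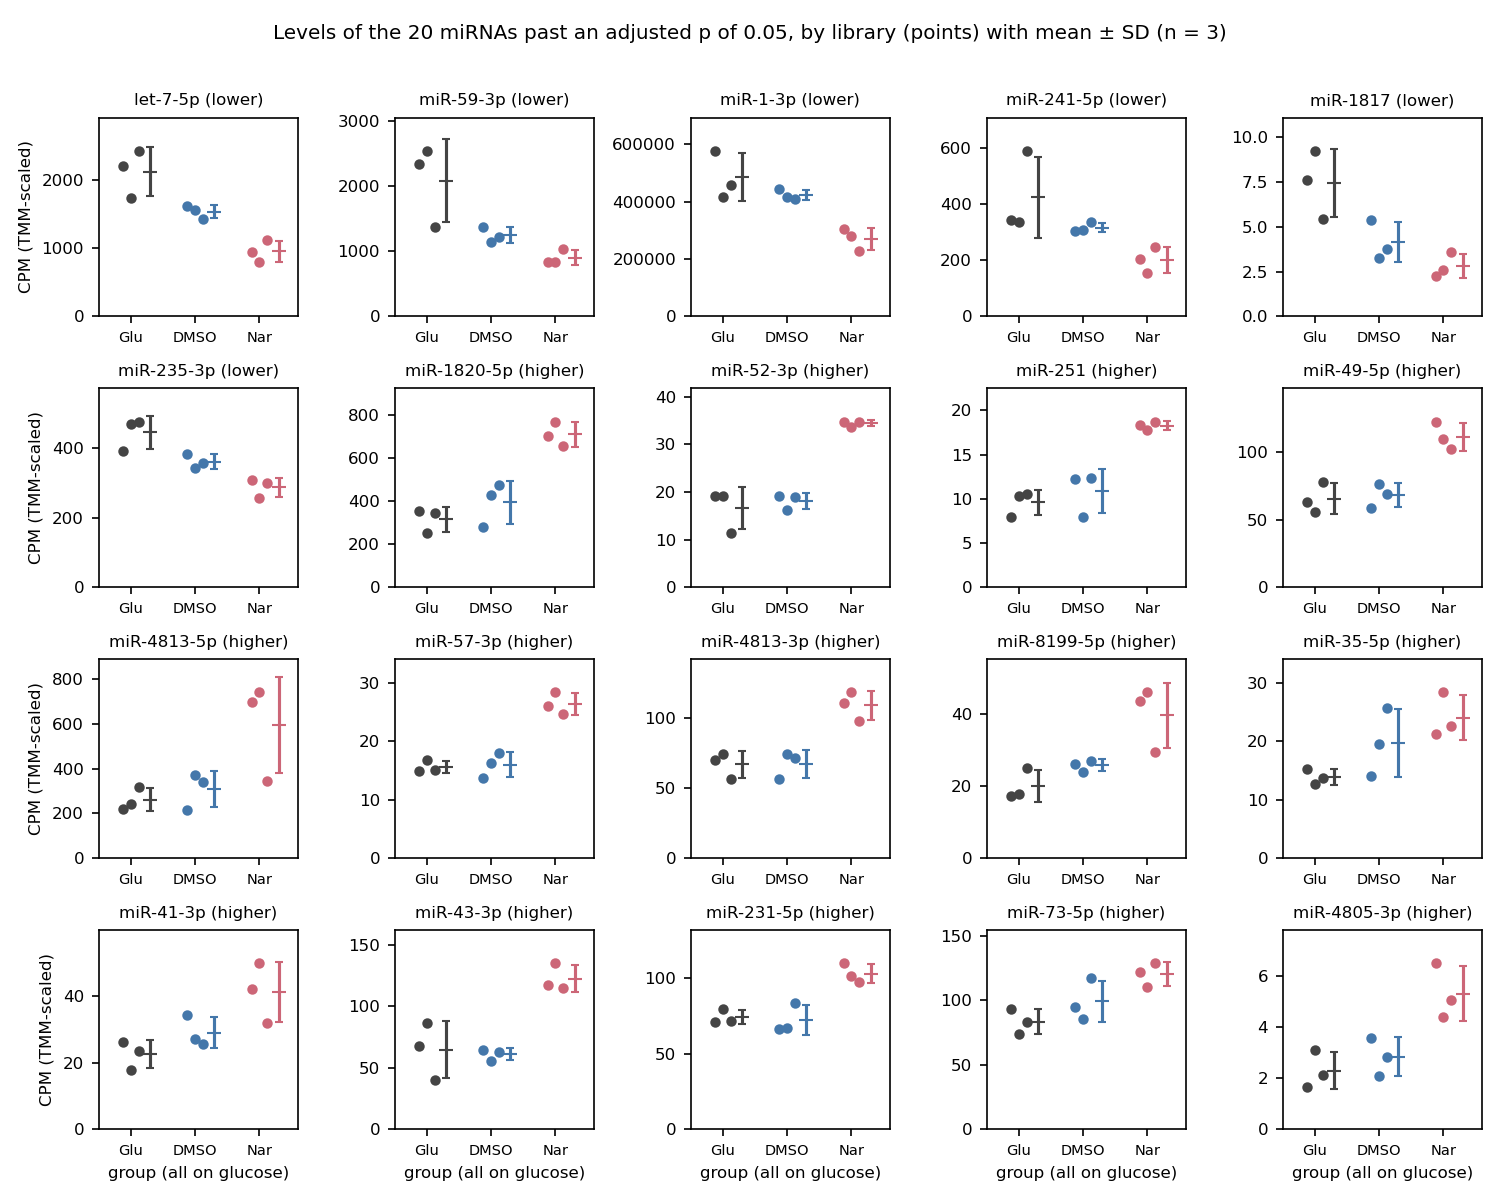
Level of each of the 20 miRNAs past an adjusted p of 0.05 in the 9 libraries of Glu, DMSO + Glu and Nar + Glu (points), in TMM-scaled CPM on axes that start at 0, with mean ± SD (n = 3) beside the points. In every panel the Nar + Glu points lie wholly above or wholly below the Glu points, while the DMSO + Glu points vary in place and in some panels, such as those of miR-35-5p, miR-4813-5p and miR-73-5p, reach into the range of Nar + Glu.

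Among the upregulated miRNAs, miR-1820-5p had the smallest p. It was at 354, 249.6 and 344 CPM in Glu, 281, 427 and 474 in DMSO + Glu and 703, 769 and 656 in Nar + Glu. The 3 Nar + Glu libraries were well above the other 6, which overlapped. The rise was 2.32-fold (log2 fold change 1.21 ± 0.17, SE; adjusted p 0.00627, the edgeR quasi-likelihood test, Benjamini-Hochberg adjusted). Its precursor lies between protein-coding genes on the plus strand of chromosome IV, from 7767461 to 7767567 in WBcel235.

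Both arms of miR-4813 rose. miR-4813-5p was at 221, 243 and 319 CPM in Glu, 217, 372 and 339 in DMSO + Glu and 698, 741 and 347 in Nar + Glu. Nar + Glu replicate 3 stood apart from the other Nar + Glu libraries, lay inside the range of DMSO + Glu and exceeded the highest Glu library by little. The fitted rise was 2.35-fold (log2 fold change 1.24 ± 0.26, SE; adjusted p 0.0176, edgeR). miR-4813-3p, at 70.0, 74.7 and 56.3 CPM in Glu, 56.2, 74.3 and 71.3 in DMSO + Glu and 111, 118 and 98.1 in Nar + Glu, rose 1.69-fold (adjusted p 0.0176, the edgeR quasi-likelihood test). For this arm all Nar + Glu libraries were above all others. The miR-4813 hairpin overlaps an exon of idhg-1, a gene named for the gamma subunit of isocitrate dehydrogenase, on the same strand of chromosome III, from 4571640 to 4571716 in WBcel235. Whether fragments of that mRNA add to its counts was not tested.

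miR-52-3p is the scarce arm of miR-52, a member of the miR-51 family, which is related to miR-100 of other animals. It was at 19.3, 19.2 and 11.5 CPM in Glu, 19.1, 16.2 and 18.9 in DMSO + Glu and 34.7, 33.7 and 34.8 in Nar + Glu. The Nar + Glu libraries hardly differed from each other, and the other 6 libraries reached at most the level of Glu replicate 1. The rise was 2.15-fold (log2 fold change 1.10 ± 0.21, SE; adjusted p 0.0176, the edgeR quasi-likelihood test). The common arm miR-52-5p, far more abundant, was at 17649, 19356 and 14524 CPM in Glu and 21551, 18461 and 22337 in Nar + Glu. These ranges overlapped, and its log2 fold change of 0.33 ± 0.15 (SE) did not pass the test. Over the 6 common arms of the miR-51 family, 3 values were positive and 3 negative, none was called, and the median log2 fold change was 0.07. miR-51-5p had a log2 fold change of 0.34 and miR-56-3p one of -0.33, and in both the groups did not overlap.

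miR-49-5p, from a precursor related to the miR-29 family, was at 63.1, 55.5 and 77.7 CPM in Glu, 58.9, 76.4 and 69.1 in DMSO + Glu and 123, 109.6 and 102 in Nar + Glu. The Nar + Glu libraries were the 3 highest of the 9. It rose 1.76-fold (adjusted p 0.0176, the edgeR quasi-likelihood test). Its partner miR-49-3p, at 384, 406 and 316 CPM in Glu and 498, 448 and 599.5 in Nar + Glu, had a log2 fold change of 0.54 ± 0.16 (SE) and an adjusted p of 0.0662 in edgeR. miR-83-3p, the other worm member of that family, had one of -0.11 ± 0.18. Only miR-49-5p of these passed the adjusted threshold.

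miR-251, a paralog of miR-252, was at 7.97, 10.3 and 10.6 CPM in Glu, 12.3, 7.97 and 12.3 in DMSO + Glu and 18.4, 17.8 and 18.7 in Nar + Glu. All Nar + Glu libraries were above all others, and the rise was 1.96-fold (adjusted p 0.0176, the edgeR quasi-likelihood test). miR-252-5p itself had a log2 fold change of -0.04 ± 0.16 (SE), with overlapping groups. miR-57-3p, whose precursor acts in patterning of the posterior body, was at 14.9, 16.8 and 15.1 CPM in Glu, 13.8, 16.2 and 18.0 in DMSO + Glu and 26.0, 28.3 and 24.7 in Nar + Glu. It rose 1.75-fold (adjusted p 0.0176, edgeR), again with no Nar + Glu library inside the range of the others. miR-231-5p was at 71.0, 79.5 and 71.7 CPM in Glu, 66.7, 66.7 and 83.6 in DMSO + Glu and 109.8, 102 and 97.2 in Nar + Glu, a rise of 1.44-fold (adjusted p 0.0377, edgeR). Its fold change lay under the 1.5-fold threshold although its groups did not overlap.

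miR-8199-5p was at 17.3, 17.8 and 25.1 CPM in Glu, 26.3, 23.9 and 27.1 in DMSO + Glu and 43.8, 46.1 and 29.4 in Nar + Glu, and rose 2.04-fold (adjusted p 0.0176, the edgeR quasi-likelihood test). Nar + Glu replicate 3 was its lowest Nar + Glu library and stood just above DMSO + Glu. miR-73-5p, the scarce arm of a miRNA related to miR-31, was at 92.9, 74.1 and 82.9 CPM in Glu, 94.5, 85.6 and 117 in DMSO + Glu and 122, 110.4 and 128 in Nar + Glu. Its DMSO + Glu libraries overlapped both other groups, and its rise was 1.49-fold (adjusted p 0.0437, edgeR). miR-4805-3p, at 1.66, 3.09 and 2.12 CPM in Glu, 3.59, 2.07 and 2.84 in DMSO + Glu and 6.49, 4.37 and 5.06 in Nar + Glu, had the largest fitted rise, 2.38-fold, at a level where the scarcest library held only 5 counts (adjusted p 0.0437, edgeR).

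The embryonic miRNA loci of chromosome II held called miRNAs among their 5p and their 3p arms. miR-35 to miR-41 come from 7 hairpins within 797 bases on the plus strand, from 11537608 to 11538404 in WBcel235, inside an intron of Y62F5A.9 on the opposite strand. The 3p arms of this cluster and of miR-42 gave 3 positive and 5 negative log2 fold changes with a median of -0.09. Of these 8 arms, 1 was called higher, miR-41-3p (12.5%, beside 6.39% of all miRNAs), and 1 call says little about the family. With total counts alone all 8 were positive. miR-35-3p, the most abundant of them, was at 55840.1, 41352 and 53505 CPM in Glu, 63709, 49103 and 54199 in DMSO + Glu and 42624, 37537 and 42529 in Nar + Glu. These groups overlapped, with a log2 fold change of -0.25 ± 0.16 (SE).

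Its other arm, miR-35-5p, was at 15.3, 12.7 and 13.6 CPM in Glu, 14.1, 19.5 and 25.6 in DMSO + Glu and 21.2, 28.3 and 22.6 in Nar + Glu. The Nar + Glu libraries were above all Glu libraries and overlapped those of DMSO + Glu, and the rise over Glu was 1.80-fold (adjusted p 0.0268, the edgeR quasi-likelihood test). miR-37-5p and miR-38-5p had log2 fold changes of 0.56 ± 0.20 and 0.94 ± 0.28 (SE) and did not pass the adjusted threshold. Nor did the other 5p arms of these precursors, with 0.45 for miR-36-5p, -0.15 for miR-39-5p, 0.29 for miR-40-5p, -0.30 for miR-41-5p and 0.21 for miR-42-5p on the log2 scale. The 5p and 3p arms thus both held positive and negative values, and the arms were not tested against each other. miR-41-3p, at 26.2, 17.8 and 23.6 CPM in Glu, 34.4, 27.1 and 25.6 in DMSO + Glu and 42.1, 49.9 and 31.8 in Nar + Glu, was far scarcer than the 3p arms of its neighbours and rose 1.89-fold (adjusted p 0.0268, edgeR). Reads that fit several near-identical family members could have been assigned to any of them, and the sources used here do not give the rule for such reads.

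miR-42, miR-43 and miR-44 form a second cluster of 308 bases on the plus strand of chromosome II, from 11889811 to 11890118, with no protein-coding gene there. miR-43-3p, of the miR-2 family, was at 68.0, 86.4 and 39.9 CPM in Glu, 64.9, 55.8 and 62.5 in DMSO + Glu and 117, 135 and 115 in Nar + Glu. Glu replicate 3 was low, the DMSO + Glu libraries fell inside the range of Glu, and the Nar + Glu libraries were above all of them. Its rise was 1.97-fold (adjusted p 0.0268, the edgeR quasi-likelihood test). miR-42-3p had a log2 fold change of 0.42 ± 0.14 (SE) and miR-44-3p one of 0.22 ± 0.20, and neither passed the threshold. The entry of miR-44-3p held the same counts as that of miR-45-3p in all libraries, so these are 1 measurement. In the miR-2 family as a whole, 1 of 4 members was called higher (25%, beside 6.39% of all miRNAs), and 1 call says little about so small a family. Its most abundant member, miR-250-3p, had a log2 fold change of -0.40 ± 0.26 (SE) with overlapping groups.

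**Figure D4:**
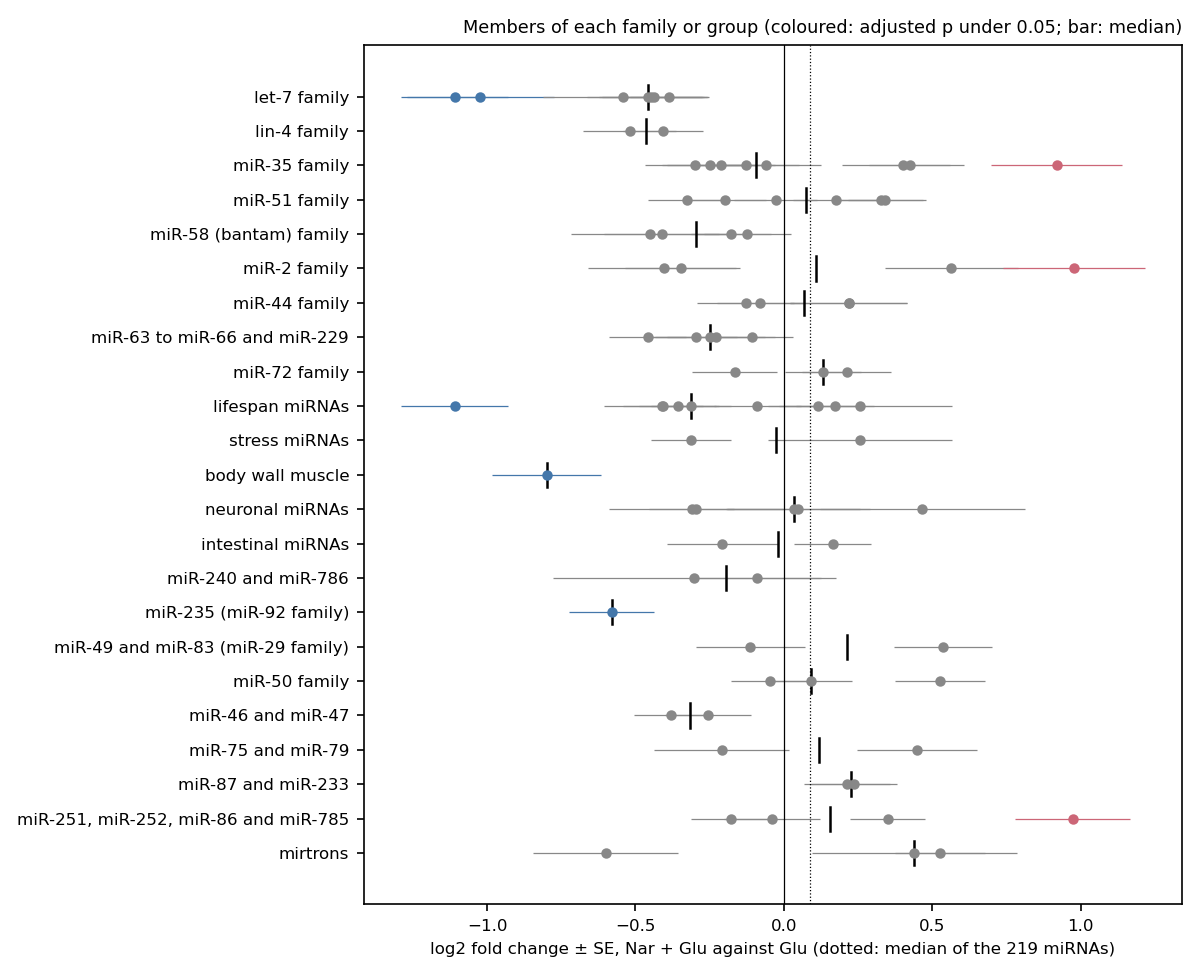
Log2 fold change of Nar + Glu against Glu with its SE (horizontal axis) for the tested members of 23 families and groups, coloured where the adjusted p was under 0.05, with a bar at the median of each group and a dotted line at 0.09, the median of the 219 miRNAs. The 7 members of the let-7 family all lie below 0, while the members of the miR-35 and miR-51 families lie on both sides.

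Among the miRNAs known to change adult lifespan, 1 of the 9 tested was called, let-7-5p, which is also counted in the let-7 family. That is 11.1%, beside 9.13% of all miRNAs called in either direction and 2.74% called lower, so 1 call says little about the group. miR-71-5p, which lengthens life and acts in neurons and the intestine, was the most abundant of them, at 44439.6, 43520.4 and 42624 CPM in Glu, 42100.1, 37287 and 35380.3 in DMSO + Glu and 33700.0, 31155 and 33576 in Nar + Glu. All Nar + Glu libraries were below all others, but the log2 fold change of -0.36 ± 0.13 (SE) did not pass the adjusted threshold (adjusted p 0.086, the edgeR quasi-likelihood test) and was 0.05 with total counts alone. miR-238-3p, at 2632, 2897 and 3233 CPM in Glu and 2445, 2348 and 2023 in Nar + Glu, had one of -0.31 ± 0.14 (SE), also short of the threshold. miR-34-5p, miR-228-5p, miR-246-3p and miR-239a-5p had log2 fold changes of 0.17, -0.09, 0.11 and 0.26, and miR-80-3p one of -0.41, all with overlapping groups. The median over the 9 was -0.31 under TMM and 0.08 with total counts alone, where the median of all miRNAs was 0.50. miR-239b-5p was too scarce to be tested.

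Other families gave no call at an adjusted p under 0.05. The 4 tested miRNAs of the miR-58 family, relatives of the fly growth regulator bantam, had log2 fold changes from -0.45 to -0.12 with a median of -0.30, and 1 of them, miR-82-3p, had groups that did not overlap. With total counts alone all 4 were positive. miR-58a-3p, the second most abundant miRNA of these worms, was at 227815, 142580.0 and 97712 CPM in Glu and 108963, 103243 and 119611 in Nar + Glu, with Glu replicate 1 far above the other libraries. The 5 miRNAs miR-63 to miR-66 and miR-229 had a median of -0.25 and all negative values, of which 1 remained negative with total counts alone. miR-65-5p came nearest to the threshold, at 2015, 2275 and 2120.2 CPM in Glu, 1967, 2019 and 1616 in DMSO + Glu and 1417, 1470.2 and 1606 in Nar + Glu (log2 fold change -0.46 ± 0.13, SE; adjusted p 0.0523, edgeR). Its cluster lies in an intron of gcn-1 on the same strand of chromosome III.

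Mirtrons, whose hairpins are short introns released by splicing, had 3 members tested. miR-62, in ugt-50, was at 69.7, 72.0 and 59.6 CPM in Glu, 69.4, 69.3 and 74.5 in DMSO + Glu and 87.5, 99.6 and 92.5 in Nar + Glu, with non-overlapping groups and a log2 fold change of 0.53 ± 0.15 (SE; adjusted p 0.0529, edgeR). miR-1020-3p had one of -0.60 ± 0.24 and miR-1018 one of 0.44 ± 0.35. The pairs miR-46 and miR-47, miR-75 and miR-79, miR-87 and miR-233, and miR-240 and miR-786 had median log2 fold changes of -0.32, 0.12, 0.22 and -0.20. The medians of the miR-44, miR-72 and miR-50 families were 0.07, 0.13 and 0.09. That of the miR-44 family counts the identical entries miR-44-3p and miR-45-3p, both at 0.22, separately. Its other members, miR-61-3p and miR-247-3p, were at -0.08 and -0.13. miR-47-3p came closest to the threshold among the pairs, with a log2 fold change of -0.38 ± 0.13 (SE; adjusted p 0.071, edgeR). Among the families it was miR-62, given above, which also belongs to the miR-50 family. miR-70-3p, miR-37-3p and miR-35-3p were among the 5 most abundant miRNAs, and their log2 fold changes of -0.04, -0.21 and -0.25 did not pass the test.

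A further 19 miRNAs passed the fold and unadjusted p thresholds without an adjusted p under 0.05, with adjusted p up to 0.147 in the edgeR quasi-likelihood test. miR-244-5p was at 113, 145 and 70.2 CPM in Glu, 94.8, 107 and 90.9 in DMSO + Glu and 173, 202 and 165 in Nar + Glu. miR-236-5p was at 10.6, 9.94 and 11.5 CPM in Glu, 8.37, 6.49 and 5.37 in DMSO + Glu and 19.2, 16.5 and 13.1 in Nar + Glu. For both of these the 3 Nar + Glu libraries were the highest of the 9, and for miR-236-5p the DMSO + Glu libraries were below those of Glu. miR-86-3p behaved otherwise, at 443, 292 and 636 CPM in Glu, 622, 757 and 722 in DMSO + Glu and 904, 775 and 638 in Nar + Glu, with DMSO + Glu overlapping Nar + Glu. miR-4926 was at 4.32, 5.14 and 4.54 CPM in Glu, 8.67, 9.74 and 10.4 in DMSO + Glu and 7.06, 6.95 and 7.73 in Nar + Glu, with every DMSO + Glu library above every Nar + Glu library. These 4 were chosen after their values were seen.

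The DMSO + Glu libraries took different places from miRNA to miRNA. For miR-52-3p the step from Glu to DMSO + Glu was 0.13 ± 0.21 and the step from DMSO + Glu to Nar + Glu 0.93 ± 0.19 on the log2 scale (SE). For miR-43-3p these steps were -0.08 ± 0.22 and 1.01 ± 0.21, and for miR-1-3p -0.19 ± 0.16 and -0.65 ± 0.16. In these miRNAs most of the distance lay between DMSO + Glu and Nar + Glu. For miR-1817 the first step was -0.83 ± 0.30 and the second -0.57 ± 0.35, and for miR-35-5p they were 0.50 ± 0.23 and 0.29 ± 0.21. For miR-235-3p they were nearly equal, -0.31 ± 0.14 and -0.33 ± 0.14. The steps share the DMSO + Glu libraries and were not tested against each other.

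The arms of one precursor come from the same hairpin, so their ratio within a library does not move with the scaling. Both arms of 73 precursors averaged 10 counts or more. Measured as log2 of the scarcer over the commoner arm, this ratio was higher in Nar + Glu than in Glu for 52 precursors and lower for 21. In 18 precursors (24.7%) all Nar + Glu libraries were above all Glu libraries, and in 2 (2.74%) they were all below. The median ratio over precursors, centred on the 6 libraries, was -0.13, -0.13 and -0.10 in Glu, -0.10, 0.02 and 0.07 in DMSO + Glu and 0.10, 0.28 and 0.07 in Nar + Glu. DMSO + Glu overlapped both groups. The difference of Nar + Glu from Glu was 0.27 on the log2 scale, with an exact permutation p of 0.1, the smallest that 3 against 3 allow.

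**Figure D5:**
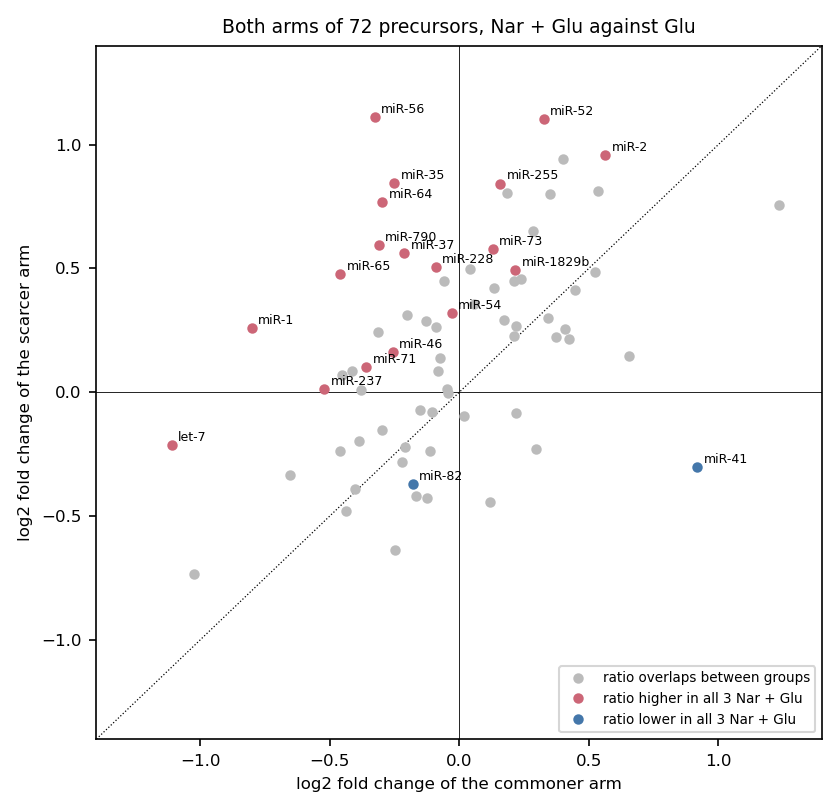
Log2 fold change of Nar + Glu against Glu for the scarcer arm (vertical axis) and the commoner arm (horizontal axis) of 72 precursors whose arms were both tested, with the line of equal change dotted. Precursors whose arm ratio did not overlap between the groups are coloured and named, and 18 of these 20 lie above the line, where a higher ratio places them.

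miR-1 and let-7 were among the precursors whose arms parted. miR-1-3p fell while miR-1-5p had a log2 fold change of 0.26 ± 0.22 (SE), and the log2 ratio of miR-1-5p to miR-1-3p went from -12.5, -11.9 and -11.4 in Glu to -10.9, -10.7 and -10.9 in Nar + Glu, with -11.9, -11.3 and -11.3 in DMSO + Glu. These DMSO + Glu libraries were all below those of Nar + Glu and reached slightly above those of Glu. For let-7 the ratio of let-7-3p to let-7-5p went from -7.10, -6.76 and -6.79 in Glu to -5.78, -5.80 and -6.33 in Nar + Glu, and with -6.80, -5.99 and -6.01 the DMSO + Glu libraries overlapped both groups. let-7-3p itself had a log2 fold change of -0.21 ± 0.20 (SE). In both the scarcer arm did not pass the test in either direction. The largest difference in ratio was that of miR-56, 1.45 on the log2 scale, where miR-56-5p was at 1.66, 3.77 and 3.02 CPM in Glu, 5.68, 5.31 and 3.79 in DMSO + Glu and 5.36, 7.20 and 5.06 in Nar + Glu. That arm was scarce, with between 5 and 28 counts in each Glu and Nar + Glu library. Neither miR-56-5p (adjusted p 0.0667) nor miR-56-3p (adjusted p 0.122) passed the edgeR test. miR-1, miR-35, miR-64 and miR-65 followed with differences of 1.07, 1.07, 1.00 and 1.00. miR-41 went the other way, by -1.22, with miR-41-3p upregulated and miR-41-5p at a log2 fold change of -0.30. Its log2 ratio of miR-41-5p to miR-41-3p was 0.37, 0.83 and 0.63 in Glu and -0.45, -1.17 and -0.20 in Nar + Glu. miR-41-3p was thus the scarcer arm in every Glu library. It counts as the commoner arm, which is set by the total over the 6 libraries, only through the Nar + Glu libraries. Among the 72 scarcer arms tested, 6 were called higher (8.33%) and none lower, with a median log2 fold change of 0.24. Among the 73 commoner arms 3 were called higher (4.11%), miR-41-3p among them, and 3 lower (4.11%), with a median of -0.07. Beside 6.39% higher and 2.74% lower over all 219 miRNAs, these shares of calls lay near the background.

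By the chromosome of the precursor, the calls were none higher and 3 lower among 20 on chromosome I, 6 higher and none lower among 44 on chromosome II and 3 higher and none lower among 29 on chromosome III. They were 2 higher and 1 lower among 31 on chromosome IV, none higher and 1 lower among 21 on chromosome V and 3 higher and 1 lower among 70 on chromosome X. Over all miRNAs tested the shares were 6.39% higher and 2.74% lower. The median log2 fold changes were 0.11, 0.20, 0.14, 0.11, -0.22 and 0.04 in the same order. These counts describe positions, are small, and were not tested.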

How the data were processed

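Small RNA libraries of whole worms were sequenced by the authors, who removed adapters and reads under 17 nt with cutadapt 1.14 and aligned and counted reads per mature miRNA with mirdeep2 on WBcel235. The labels also name a poly(A) isolation before the small RNA kit, which mature miRNAs, having no poly(A) tail, would not pass, whereas the study's methods give that step under mRNA sequencing. Whether it was used for these libraries, and what it did to the counts, was not tested. The deposited values are these raw counts per mature miRNA, whole numbers with no scaling, in 1 table of 268 entries that equals the 12 files of single samples. 5 repeated names kept the entry with the higher total. No column belonged to a sample outside the series. The members and the lists of families were chosen with earlier results of these data known.

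Counts of the 3 Nar + Glu and 3 Glu libraries were tested with the quasi-likelihood test of edgeR 4.0.16 (R 4.3.3) after filterByExpr (minimum count 10, minimum total 15) and TMM scaling, with Benjamini-Hochberg adjustment over 219 miRNAs. CPM were scaled by TMM over the 9 libraries on glucose, so ratios of CPM can differ slightly from fold changes. An SE is that of the log2 fold change. Arm ratios used a pseudocount of 0.5. Permutation tests were two-sided and exact. The main fit did not pair libraries by replicate number. Same-numbered libraries of both groups had correlations of deviations of -0.19, -0.05 and -0.32, and differently numbered ones ran from -0.12 to 0.27. Deviations from a mean of 3 libraries are tied to each other, so these values cannot exclude a shared batch.

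Named miRNAs were the 10 smallest p higher and the 10 lower, the 5 largest rises and 5 largest falls past the fold and p thresholds with groups that did not overlap, the 5 most abundant, and in each list the called members and the most abundant one. Other members of a list are named to complete it. Positions of 257 of 263 names came from the Ensembl annotation of WBcel235, with RefSeq symbols for names it lists otherwise. Clusters were miRNA genes on one strand less than 5000 bases apart. Alternatives were scaling (total counts, DESeq2 size factors, miR-1-3p left out), filters, DESeq2 1.42.0, fits of 9 or 12 libraries, a replicate block and leaving out each library.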

Additional observations from a re-analysis of the deposited data

How the results depend on the processing

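With 3 libraries a group, the count of 20 miRNAs at an adjusted p under 0.05 by the edgeR quasi-likelihood test was 83 with total counts alone, 12 with a mean count of at least 100, 40 in a fit of 9 libraries, 40 in a fit of 12 and 13 with a replicate block. It ran from 0 to 29 when each library was left out in turn. With Nar + Glu replicates 1 and 2 summed to 1 library, an alternative chosen after seeing the data, it was 0, with 53 miRNAs at an unadjusted p under 0.05 and a smallest adjusted p of 0.0564, and DESeq2 on the 6 separate libraries gave 29. Thinning to equal totals and merging identical entries, also chosen after seeing the data, gave 18 and 21. The count of 36 past the fold and p thresholds was 84 with total counts alone and 16 with a mean count of at least 100, and ran from 32 to 41 with a library left out. With total counts alone 13 named miRNAs turned from a negative to a positive log2 fold change, and of these miR-70-3p passed the threshold (0.38, adjusted p 0.0435 in edgeR). The others were miR-58a-3p (0.0125), miR-35-3p (0.17), miR-37-3p (0.22), miR-250-3p (0.0312), miR-66-5p (0.19), miR-72-5p (0.24), miR-71-5p (0.0495), miR-238-3p (0.0782), miR-790-5p (0.0840), miR-240-3p (0.27), miR-90-3p (0.36) and miR-47-3p (0.0126). With a library left out, miR-70-3p ran from -0.13 to 0.0750, miR-240-3p from -0.28 to 0.0824 and miR-90-3p from -0.0910 to 0.00302. Of 845 values of 45 named miRNAs in 19 alternatives, 690 kept their direction and side of the threshold, 84 kept the direction and lost the call, 53 gained it and 18 changed sign. The difference in the share of miR-1-3p ran from -10.7 to -7.72 points and that in the arm ratio from 0.23 to 0.30 with a library left out, and the paired sign-flip test of both gave an exact p of 0.25, the smallest it allows. The cause of the differences between settings was not tested. Scarce miRNAs limit precision, and 44 names were too scarce to be tested, with at most 19 counts in any library.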

Other observations

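Some miRNAs outside the families above passed the fold and p thresholds with groups that did not overlap. miR-230-3p was at 89.3, 74.4 and 89.5 CPM in Glu, 78.6, 74.1 and 86.5 in DMSO + Glu and 57.6, 32.9 and 65.7 in Nar + Glu, with Nar + Glu replicate 2 the lowest of the 9 libraries. miR-67-5p, from an intron of zmp-1, was at 7.97, 9.60 and 8.17 CPM in Glu, 7.47, 6.79 and 9.78 in DMSO + Glu and 13.6, 10.8 and 14.9 in Nar + Glu, where all Nar + Glu libraries were the highest. miR-8201-5p, from an intron of hil-2, was at 3.65, 3.09 and 2.72 CPM in Glu, 4.78, 7.08 and 7.89 in DMSO + Glu and 5.65, 5.92 and 4.76 in Nar + Glu. Its DMSO + Glu and Nar + Glu libraries overlapped, and both stood above Glu. These 3 were chosen after their values were seen, and their log2 fold changes against Glu were -0.65 ± 0.23, 0.65 ± 0.22 and 0.84 ± 0.29 (SE).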
